A study of Schizosaccharomyces pombe with 6 samples.

Results

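The proteasome genes of fission yeast were taken as all protein-coding genes whose deposited description contains the word proteasome. The rule found 44 genes, of 5145 protein-coding genes and 7268 genes in all. By their names and descriptions 14 encode subunits of the 20S core, 11 subunits of the 19S base, 10 subunits of the 19S lid and 6 assembly factors. The other 3 are cut8, fub1 and fub2. PolyA RNA of wild type 972 h- cells in YES medium was sequenced as 2 libraries from cells given 100 nM rapalink-1 for 5 h, 2 from cells given 100 nM rapamycin for 5 h and 2 from untreated cells. Rapamycin binds the protein FKBP12 and inhibits TORC1, the nutrient-sensing kinase complex, from a site outside the active site. Rapalink-1 is rapamycin joined through a linker to an inhibitor of the TOR active site. All 3 conditions share the strain and the medium and no allele was altered. The cultures were flasks divided from a pair of mother cultures, and the labels do not say whether the replicate number marks the mother culture. The p-values rest on the spread between the 2 libraries of a condition, whether it comes from the flasks or from the mother cultures. This spread was pooled over the 3 conditions and moderated by that of other genes of like level, so it is not that of the compared conditions alone.

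The proteasome degrades proteins that carry chains of ubiquitin. Its 20S core is a barrel in which rings of alpha subunits close the ends and rings of beta subunits hold the proteolytic sites. The 19S regulatory particle caps the barrel, where the lid removes ubiquitin and the ring of Rpt ATPases in the base unfolds the substrate and feeds it into the core. Dedicated chaperones guide the assembly of both particles. In budding yeast the transcription factor Rpn4 controls most proteasome genes together.

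Levels are FPKM, fragments per kilobase of gene model scaled by a median-of-ratios size factor for each library, which can be compared between genes. Reads recovered from FPKM summed to 16674483 and 16527483 with rapalink-1, 19959695 and 26321118 with rapamycin and 19678440 and 17782822 in untreated cells. All values are relative to the other transcripts of a library, so a change in the total mRNA of a cell could not be seen. For the labelled h- mating type, the libraries held the M-cell receptor gene mam2 at 24.3 to 41.2 FPKM and the P-cell genes map2 and map3 at 2.21 to 3.56 FPKM. Other gene models cover 35.3% of map2 and 59.7% of map3, which limits the comparison of their levels with that of mam2. The M-factor genes mfm2 and mfm1 had 52.2 to 327 FPKM and 2.15 to 44.5 FPKM. The high ends of mam2, mfm1 and mfm2 were rapalink-1 libraries, with mfm1 at a mean of 39.3 FPKM there and 2.33 FPKM in untreated cells. The model of a further M-factor gene, mfm3, lies wholly under an antisense transcript and was listed at 0. Of the 44 proteasome genes, 42 passed the filter of a mean of at least 1 FPKM and were tested.

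In untreated cells the 14 core subunits were expressed within 2.28-fold of each other. Their means lay between 134 FPKM for pup3 (beta 3) and 304 FPKM for pre5 (alpha 6), with a median of 202 FPKM. They stood at percentiles 83.9 to 92.9 of the protein-coding genes, whose median was 35.4 FPKM. In untreated cells pre5 had 310.2 and 299 FPKM and its neighbour scl1 (alpha 1) 292 and 282 FPKM. At the low end pup3 had 133 and 134 FPKM and pre8 (alpha 2) 139 and 135 FPKM. The libraries of neighbours in this order did not overlap, but the space between them was smaller than that between the replicates of pre5 and of pre8. The listed values of the 19S genes spread more widely, at 59.3 to 288 FPKM in the 18 with at most 50% of the model overlapped. The lowest of these, rpn1301, rpn1302 and rpn501, each encode a subunit that has a second gene. The ATPase genes of the base other than rpt5 ran between rpt3 at 197 FPKM and rpt6 at 288 FPKM, a narrower range than that of the core. The lid ran between rpn6 at 75.3 FPKM and rpn15 at 248 FPKM. Rpn15 is the small lid protein known as Dss1. Among the assembly factors ump1, which is degraded by the core it helps to mature, was highest at 163 FPKM and ecm29, a large protein that binds both particles, had 30.1 FPKM.

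The lowest gene of the base (rpt5), of the lid (rpn6), of the assembly factors (nas2) and of the remaining 3 (fub2) were genes whose models lie mostly under other gene models. No strand setting of the counting is stated in the sources used here, and without strand the reads of overlapping genes cannot be told apart. The gene model of rpt5 (SPAC3A11.12c, chromosome I, 3443930 to 3446017, plus strand), an essential ATPase subunit of the base, is overlapped over its whole length by an antisense transcript and had 0 reads in all 6 libraries. Of the 417 protein-coding genes overlapped over their whole length, 374 had 0 reads in every library, against 13 of the 1804 protein-coding genes with no overlap. Whether rpt5 was transcribed cannot be read from a count of 0 in such a model. The other 7 proteasome genes with more than 50% of their model overlapped were rpn6 (51.6%), fub1 (57.1%), SPCC24B10.16c (65.1%), rpn10 (67.2%), cut8 (69.7%), fub2 (79.0%) and nas2 (86.3%). These 8 had 0 to 75.3 FPKM in untreated cells, and the 36 genes with less overlap had 30.1 to 304 FPKM. Comparisons of 1 gene between conditions use the same model throughout, while levels of these 8 genes against other genes are not comparable.

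**Figure D1:**
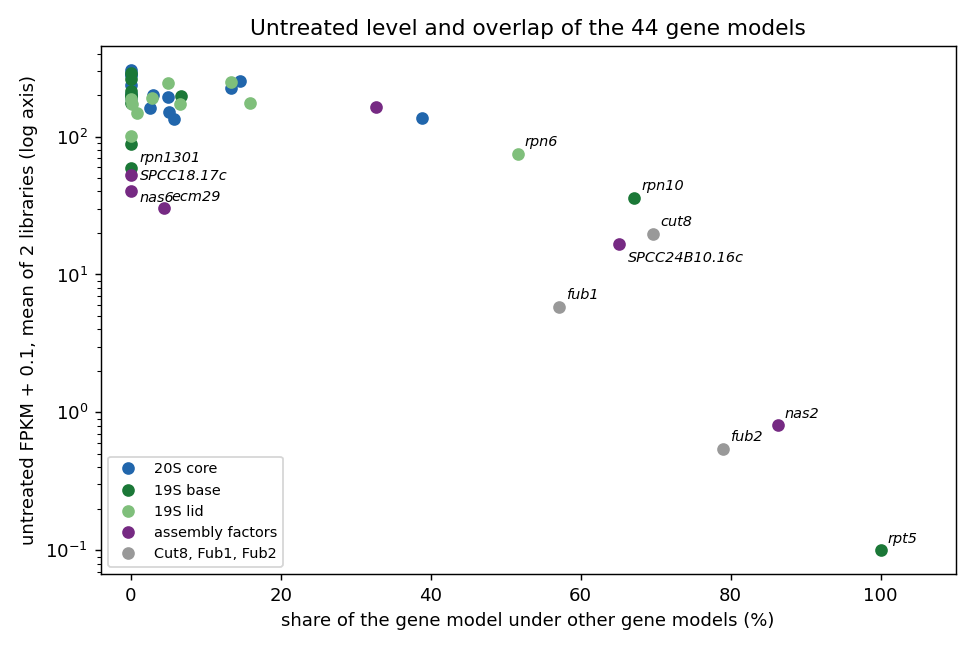
Mean level in the 2 untreated libraries (FPKM + 0.1, log axis) against the share of each gene model that lies under other gene models (%), for the 44 proteasome genes coloured by role. The 8 genes beyond 50% overlap sit at 0 to 75.3 FPKM, with rpt5 at 0 and 100% overlap, and the 14 core subunits sit at 134 to 304 FPKM.

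Rpn5, a scaffold subunit of the lid, is encoded by rpn501 and rpn502, whose coding sequences are identical at 1330 of 1332 bases. The differences are T978C and T1131C, with the base of rpn501 first and positions counted from the first coding base. The stretches around the differing bases, in capitals, are shown because only reads that cover such positions or the flanking sequence can separate the copies. They were read from the reference ASM294v3.
rpn501, chrI:1267279-1267308, plus strand: tttgctgaaaatgaTgaaaaaggtgagaaa
rpn502, chrI:4909836-4909865, minus strand: tttgctgaaaatgaCgaaaaaggtgagaaa
rpn501, chrI:1267432-1267461, plus strand: caatttctttgcgaTcttattgcaaagcat
rpn502, chrI:4909683-4909712, minus strand: caatttctttgcgaCcttattgcaaagcat
Of all stretches of 50 bases in the coding sequence of rpn502, 92.2% also occur in rpn501. Per the paper the reads were paired and longer than 50 bases, so this is not the share of reads that match both copies, which was not measured. The split of reads between the copies is uncertain. As deposited, rpn501 had 103 and 99.7 FPKM with rapalink-1, 94.2 and 90.6 FPKM with rapamycin and 99.7 and 101 FPKM in untreated cells. The copy rpn502 had 154 and 146 FPKM with rapalink-1, 148 and 145 FPKM with rapamycin and 144 and 151 FPKM in untreated cells. Their sum as deposited was 257 and 245 FPKM with rapalink-1, 243 and 236 FPKM with rapamycin and 244 and 252 FPKM in untreated cells. If reads that match both copies were left out or counted for both, the sum is affected as well. Its closeness to the untreated levels of rpn15 and rpn8 is therefore a description of the deposited values. The share of rpn502 in this sum was 59.0% to 61.6% in all 6 libraries. The paralogues rpn1301 and rpn1302, which encode forms of the ubiquitin receptor Rpn13, share no stretch of 50 coding bases and nor do fub1 and fub2, so reads from these copies can be told apart.

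With rapalink-1, 8 of the 14 genes of the 20S core rose over untreated cells, while 4 of the 20 tested genes of the 19S particle rose and 1 fell. Of the 42 genes tested, 18 passed an adjusted p of at most 0.05 from limma, against 47.4% of all 4847 tested genes. Of the 18, 16 were higher and 2 lower, against 24.3% of all tested genes called higher and 23.1% called lower. The 16 include fub2, which passed the filter on low values only through its rapalink-1 libraries, and without it 15 of 41 genes were higher and 2 lower. No core gene fell. All 14 core genes had a positive log2 fold change, and in 12 of them both rapalink-1 libraries lay above both untreated libraries, which was so for 36.6% of all tested genes. The median log2 fold change of the core was 0.17, against -0.01 for all tested genes. These are changes of 1.26-fold at most. Quantile normalization, which forces all libraries to 1 distribution, turned the split over the 42 genes to 9 higher and 11 lower, with the core at 6 higher and 0 lower and the base and the lid at 0 higher and 5 lower each.

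The largest change in the core was that of pup1 (SPAC23D3.07, chromosome I, 4350803 to 4352369, plus strand), the beta 2 subunit with trypsin-like activity. It had 197 and 186 FPKM with rapalink-1, 157 and 155 FPKM with rapamycin and 149 and 154 FPKM in untreated cells. Both rapalink-1 libraries were above the other 4, and the rapamycin and untreated libraries lay close to each other. The log2 fold change over untreated cells was 0.34 (SE 0.04, limma adjusted p = 0.00025), a fold of 1.26. Next was pre4 (SPBC577.10, chromosome II, 769641 to 770937, plus strand), the beta 7 subunit, with 245 and 226 FPKM with rapalink-1, 191 and 187 FPKM with rapamycin and 189 and 192 FPKM in untreated cells. Its log2 fold change was 0.30 (SE 0.05, limma adjusted p = 0.000795), again without overlap. The beta 6 gene pam1 (SPAC22F8.06, chromosome I, 4795276 to 4796348, plus strand) had 257 and 242 FPKM with rapalink-1, 209 and 195 FPKM with rapamycin and 207 and 202 FPKM in untreated cells, and its log2 fold change was 0.29 (SE 0.05, limma adjusted p = 0.00138). The groups did not overlap for pam1 either, although its rapalink-1 libraries differed from each other more than the untreated ones did.

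The other proteolytic subunits are encoded by pts1 and pre3. The beta 5 gene pts1, which carries the chymotrypsin-like activity, had 279.9 and 272 FPKM with rapalink-1, 229 and 228 FPKM with rapamycin and 239 and 234 FPKM in untreated cells, with a log2 fold change of 0.23 (SE 0.04, limma adjusted p = 0.00122). The beta 1 gene pre3, which carries the caspase-like activity, had 172 and 166 FPKM with rapalink-1, 159 and 157 FPKM with rapamycin and 165 and 157 FPKM in untreated cells. The higher untreated library lay just under the lower rapalink-1 library, and its log2 fold change of 0.07 (95% interval -0.02 to 0.16, limma adjusted p = 0.186) did not pass. So the genes of the trypsin-like and chymotrypsin-like subunits passed the test and that of the caspase-like subunit did not, and the difference between these genes was not tested. The beta 4 gene pre1 rose as well (log2 fold change 0.20, limma adjusted p = 0.00228), while pup3, beta 3, had 0.11 (limma adjusted p = 0.0547). In all, 5 of 7 beta genes and 3 of 7 alpha genes passed, with medians of 0.23 and 0.11.

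The 3 alpha genes that rose were pup2 (alpha 5), pre6 (alpha 4) and pre8 (alpha 2). The highest of them, pup2 (SPAC323.02c, chromosome I, 3909254 to 3910426, minus strand), had 324 and 327 FPKM with rapalink-1, 267 and 257 FPKM with rapamycin and 275 and 281 FPKM in untreated cells, with a log2 fold change of 0.23 (SE 0.04, limma adjusted p = 0.0014). Its rapalink-1 libraries agreed closely and stood above all others. The log2 fold changes of pre6 and pre8 were 0.19 and 0.16, and both calls were lost with quantile normalization and without untreated replicate 2. At the other end of the range, pre9 (alpha 3) and pre10 (alpha 7) had log2 fold changes of 0.00 and 0.00, with 95% intervals of -0.09 to 0.10 and -0.08 to 0.09. Summed over the subunits of a ring type, the ratio of beta to alpha FPKM was 0.862 and 0.845 with rapalink-1, 0.816 and 0.829 with rapamycin and 0.787 and 0.789 in untreated cells. The 3 conditions did not overlap in this ratio.

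In the base, 3 of 10 tested genes rose with rapalink-1 and 0 fell, with a median log2 fold change of -0.02. Of all tested genes 24.3% were called higher and 23.1% lower, so the count of base genes that rose was near the general share. The base genes that rose were the ATPase genes rpt6 (log2 fold change 0.16, limma adjusted p = 0.0187) and rpt4 (0.12, limma adjusted p = 0.0371) and the ubiquitin receptor gene rpn1302 (0.12, limma adjusted p = 0.0296). The gene with the highest level in the base, rpt6 (SPBC23G7.12c, chromosome II, 2121444 to 2122817, minus strand), had 326 and 316 FPKM with rapalink-1, 273 and 261 FPKM with rapamycin and 279 and 297 FPKM in untreated cells. Its rapalink-1 libraries stood above the other 4. Of the Rpn13 pair, rpn1302 had 94.9 and 97.9 FPKM with rapalink-1, 80.3 and 82.0 FPKM with rapamycin and 87.9 and 88.8 FPKM in untreated cells, and rpn1301 had 58.5 and 59.2 FPKM with rapalink-1, 56.5 and 54.9 FPKM with rapamycin and 59.8 and 58.9 FPKM in untreated cells with a log2 fold change of -0.01 (95% interval -0.11 to 0.08). The 95% interval of rpn1302, 0.03 to 0.21, overlaps that of rpn1301, and their difference was not tested. Log2 fold changes of the other ATPase genes tested, rpt1, rpt2 and rpt3, lay between -0.09 and -0.04, and none of them passed. The base held 0 genes called higher with quantile normalization and without the intensity trend, and 1 with DESeq2, in the fit of these 2 conditions alone and with no filter on low values. Leaving out a single library left 0 to 2 base genes called, with 0 without untreated replicate 1.

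Of the 10 tested lid genes, 1 rose and 1 fell, against 24.3% and 23.1% of all tested genes. The gene that fell was rpn11 (SPAC31G5.13, chromosome I, 3010632 to 3012307, plus strand), the metalloprotease that cuts ubiquitin chains off the substrate. It had 136 and 147 FPKM with rapalink-1, 163 and 166 FPKM with rapamycin and 172 and 170.2 FPKM in untreated cells. Both rapalink-1 libraries were below the other 4, while the rapamycin libraries lay just under the untreated ones. The log2 fold change over untreated cells was -0.27 (SE 0.04, limma adjusted p = 0.00111). The change of rpn11 was opposite in sign to that of the core, and rpn11 kept this call against untreated cells under every alternative tried. The gene that rose was rpn12, whose protein joins the lid last in budding yeast. It had 202 and 191 FPKM with rapalink-1, 161 and 161 FPKM with rapamycin and 178 and 169.5 FPKM in untreated cells, with a log2 fold change of 0.17 (SE 0.04, limma adjusted p = 0.0105). Its call was lost with quantile normalization, with no filter on low values, without rapalink-1 replicate 1 and without untreated replicate 2. The other 8 lid genes had log2 fold changes between -0.10 (rpn3) and 0.08 (rpn7).

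Assembly factors moved apart. The gankyrin gene nas6 (SPAC6C3.08, chromosome I, 2338103 to 2339312, plus strand), a chaperone of the base ATPases, had 58.0 and 49.0 FPKM with rapalink-1, 43.5 and 41.9 FPKM with rapamycin and 39.1 and 41.6 FPKM in untreated cells. Its rapalink-1 libraries were the 2 highest but also the 2 farthest apart, and the log2 fold change was 0.39 (SE 0.08, limma adjusted p = 0.00323). The core maturation gene ump1 had 187 and 181 FPKM with rapalink-1, 163 and 152 FPKM with rapamycin and 160.4 and 166 FPKM in untreated cells, a log2 fold change of 0.17 (SE 0.05, limma adjusted p = 0.0138). Opposite to both, SPCC18.17c (chromosome III, 1986334 to 1988310, minus strand), described as a predicted proteasome assembly chaperone, had 41.7 and 44.3 FPKM with rapalink-1, 50.7 and 48.0 FPKM with rapamycin and 51.3 and 54.0 FPKM in untreated cells. Both rapalink-1 libraries were below the other 4, and its log2 fold change was -0.29 (SE 0.05, limma adjusted p = 0.00269). The calls of nas6 and ump1 were lost with no filter on low values, and that of ump1 also with quantile normalization, without rapalink-1 replicate 1 and without untreated replicate 1. The values of ecm29 and SPCC24B10.16c did not pass. Nas2, another chaperone of the base, had only 14 and 10 reads with rapalink-1, 4 and 5 with rapamycin and 8 and 14 in untreated cells and was not tested.

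The largest fold changes among the 44 genes were at low levels, in the genes of PI31, a protein that binds the core and is known as a proteasome inhibitor or regulator. The fub1 gene (SPAC15E1.10, chromosome I, 3732274 to 3733363, plus strand) had 9.79 and 11.2 FPKM with rapalink-1, 7.41 and 8.79 FPKM with rapamycin and 5.39 and 6.12 FPKM in untreated cells. Its 3 conditions did not overlap, with rapalink-1 highest and untreated cells lowest. The log2 fold change with rapalink-1 was 0.77 (SE 0.11, limma adjusted p = 0.000789) and with rapamycin 0.43 (SE 0.11, limma adjusted p = 0.0341), which made fub1 the only proteasome gene called with both drugs. These comparisons share the untreated libraries. The rapamycin call of fub1 was lost with quantile normalization, without the intensity trend, with no filter on low values, with DESeq2, without rapamycin replicate 2 and without either untreated library. The paralogue fub2 (SPBP4G3.03, chromosome II, 4453054 to 4454161, plus strand) had 36 and 48 reads with rapalink-1, 9 and 20 with rapamycin and 7 and 11 in untreated cells. At 1.95 and 2.64 FPKM with rapalink-1, 0.407 and 0.663 FPKM with rapamycin and 0.326 and 0.566 FPKM in untreated cells, it passed the filter through its rapalink-1 libraries, and its log2 fold change of 1.19 is a description of a gene chosen by that filter. With 79.0% of its model overlapped, only a small part of fub2 could be counted. The gene of the nuclear tether Cut8, which holds proteasomes in the nucleus, had 20.2 and 18.1 FPKM with rapalink-1, 21.4 and 24.6 FPKM with rapamycin and 21.4 and 18.0 FPKM in untreated cells and passed in no comparison.

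**Figure D2:**
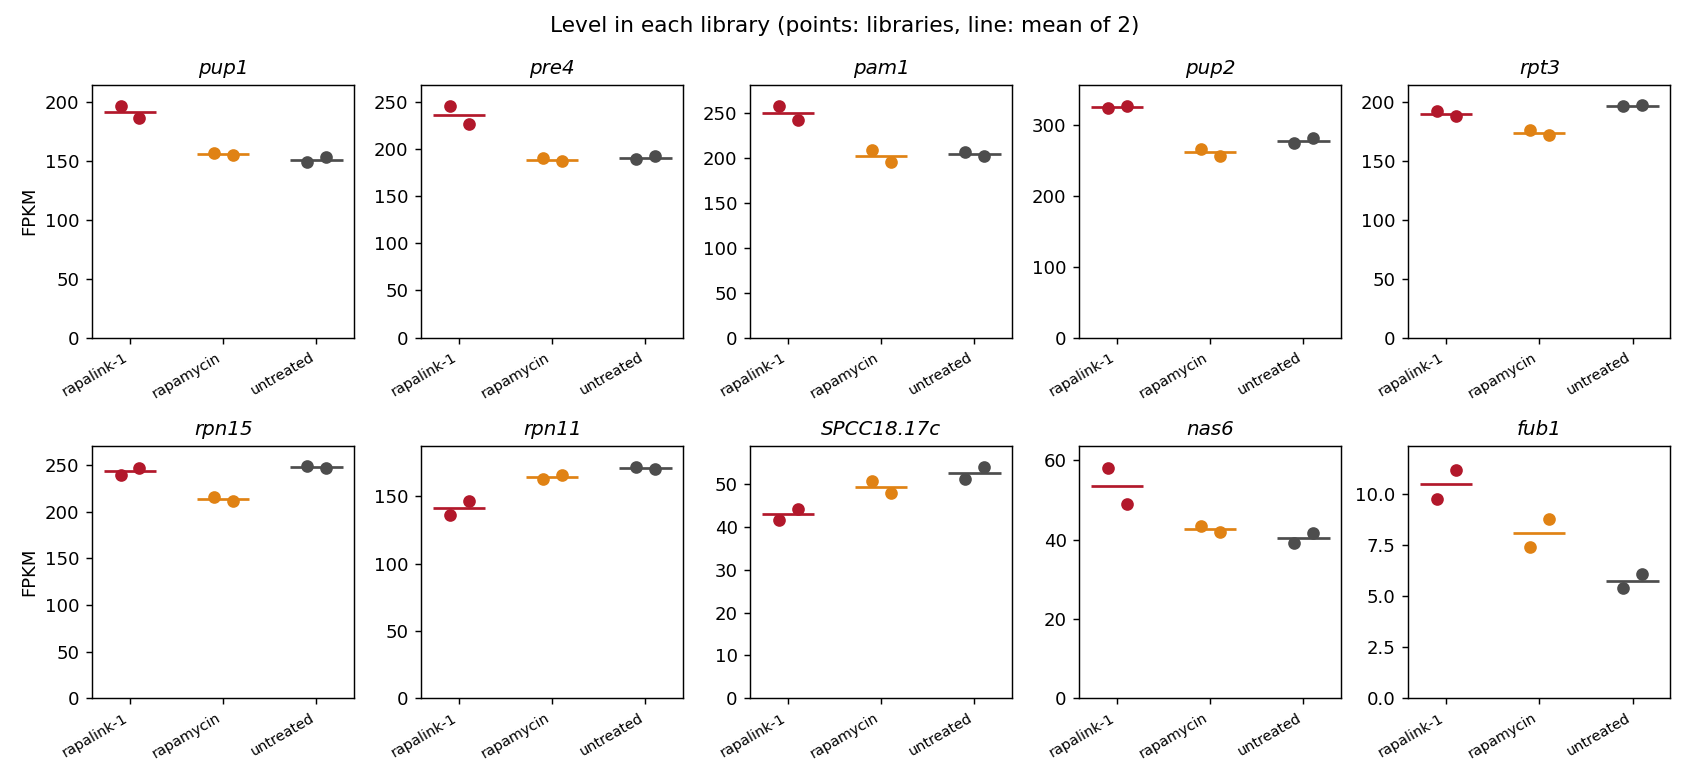
FPKM of 10 proteasome genes in each of the 6 libraries (points) with the mean of the 2 libraries of a condition (line), on axes from 0. The core genes pup1, pre4, pam1 and pup2 are highest with rapalink-1, rpn11 and SPCC18.17c are lowest with rapalink-1, rpt3 and rpn15 are lowest with rapamycin, and fub1 steps down over the 3 conditions.

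With rapamycin at the same dose and time, 0 core genes rose. Of the 42 tested genes 11 passed, against 18.2% of all tested genes. Of the 11, 1 was higher and 10 lower than in untreated cells, against 10.2% of all tested genes called higher and 8.0% called lower. The log2 fold change was negative in 36 of 42 genes, with a median of -0.10 against 0.00 for all tested genes. Of the 10 genes that fell, 5 belong to the base (mts4, rpn2, rpt1, rpt2 and rpt3), 4 to the lid (rpn3, rpn6, rpn8 and rpn15) and 1, pre10, to the core. The medians were -0.12 for the base, -0.12 for the lid and -0.09 for the core, so the decreases were small in each. The calls depended on the libraries and on the model of the spread. Without the intensity trend 1 of the 11 remained, while the calls over all 4847 tested genes went from 883 to 409. With no filter on low values 2 of the 11 remained, and 159 of all 7268 genes were called. Most or all of the 11 calls were also lost when a rapamycin or an untreated library was left out. Calls over all tested genes were fewer in these fits as well, so the loss is not particular to the proteasome genes.

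The largest decrease with rapamycin was that of rpn15 (SPAC3G6.02, chromosome I, 5383013 to 5383811, plus strand), which had 216 and 212 FPKM with rapamycin against 249 and 247 FPKM in untreated cells. With rapalink-1 the gene had 239 and 247 FPKM, near the untreated level. The log2 fold change with rapamycin was -0.21 (SE 0.04, limma adjusted p = 0.0072), and with rapalink-1 -0.03 (95% interval -0.11 to 0.06). The lid scaffold gene rpn3 had 150.1 and 149.9 FPKM with rapamycin against 169.5 and 173 FPKM in untreated cells, which gave a log2 fold change of -0.19 (SE 0.04, limma adjusted p = 0.0179). The ATPase gene rpt3 (SPCC576.10c, chromosome III, 2097289 to 2098893, minus strand) had 176 and 172 FPKM with rapamycin against 196 and 198 FPKM in untreated cells, a log2 fold change of -0.18 (SE 0.04, limma adjusted p = 0.0138). In each of these genes the replicates of a condition lay closer together than the conditions did. The values of rpn8, rpn6 and rpt1 were lower by a like amount, with log2 fold changes of -0.16, -0.16 and -0.15 and limma adjusted p-values of 0.0193, 0.0394 and 0.0387. For rpn8, the inactive partner of Rpn11, the libraries held 222 and 217 FPKM with rapamycin and 243 and 248 FPKM in untreated cells. The lid gene rpn6 had 68.3 and 66.4 FPKM with rapamycin and 74.8 and 75.9 FPKM in untreated cells, and the ATPase gene rpt1 had 183 and 175 FPKM with rapamycin and 194 and 205 FPKM in untreated cells.

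Within the core, pre10 was the only gene called lower with rapamycin (log2 fold change -0.14, limma adjusted p = 0.0374). The log2 fold change was negative in 13 of the 14 core genes, against 2416 of all 4847 tested genes. In 10 of the 14 both rapamycin libraries lay below both untreated libraries, which was so for 1591 of the 4847. All 7 alpha genes were among these 10, with a median of -0.10. The proteolytic subunit genes pre3, pup1 and pts1 had log2 fold changes of -0.03, 0.04 and -0.05, with 95% intervals of -0.12 to 0.06, -0.05 to 0.14 and -0.13 to 0.03. The mean of the rapamycin libraries was the lowest of the 3 conditions in 33 of the 42 genes, against 24.9% of all tested genes. Both rapamycin libraries lay below the other 4 in 26 of the 42, against 11.5% of all tested genes.

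**Figure D3:**
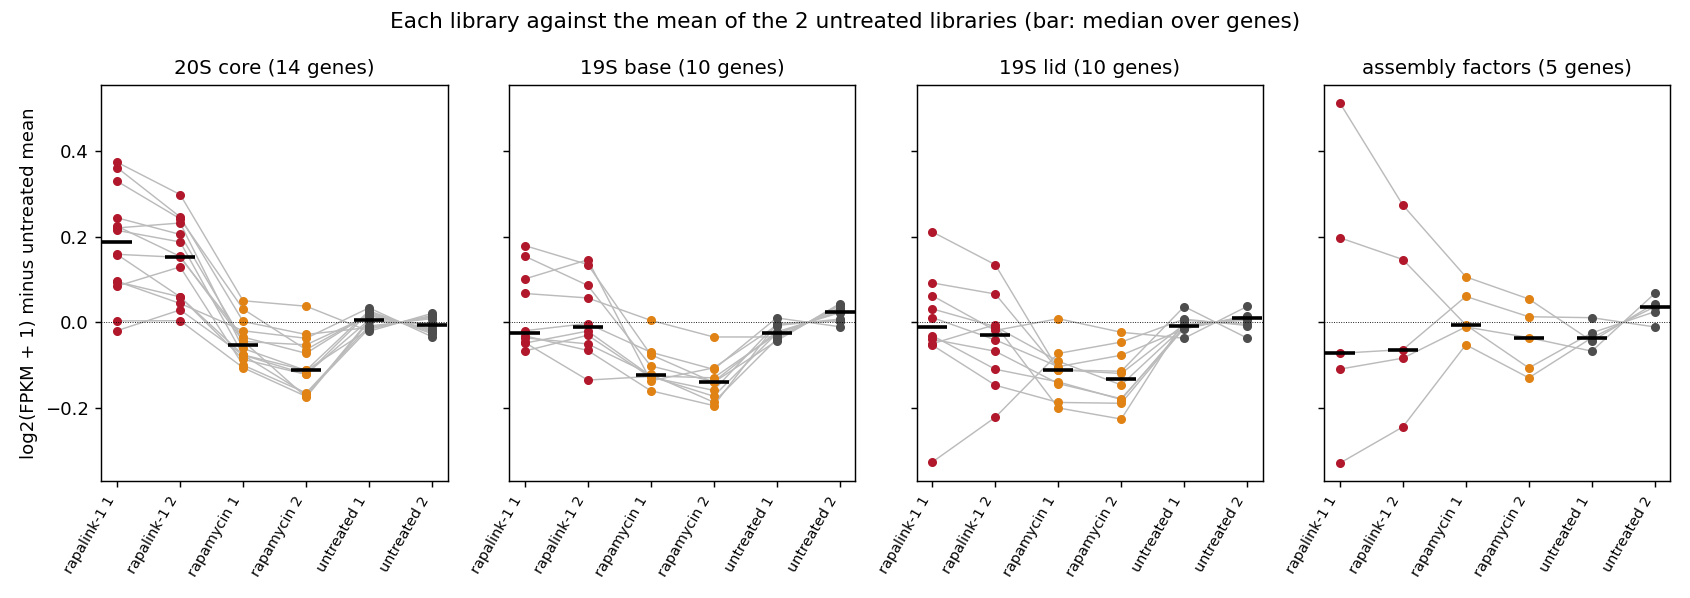
log2(FPKM + 1) of each library minus the mean of the 2 untreated libraries, for the tested genes of each role (points, joined by gene) with the median over genes (bar). The core libraries with rapalink-1 lie mostly above 0 and the rapamycin libraries of the core, the base and the lid lie mostly below 0, while 1 lid gene, rpn11, drops with rapalink-1.

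Set against each other at the same dose and time, the compounds differed in more genes of the core, 13 of 14, than of the other roles. The structural change is the linker and the active-site inhibitor that rapalink-1 carries in addition to rapamycin. Of the 42 tested genes 28 passed, against 37.2% of all tested genes. With rapalink-1, 26 were higher than with rapamycin and 2 lower, against 19.6% of all tested genes called higher and 17.6% called lower. Without fub2 they were 25 and 2 of 41. This was 1 pair of compounds, and p-values were adjusted over the 4847 genes. The core genes had a median log2 fold change of 0.26. In the base 4 of 10 genes were higher (median 0.10), in the lid 5 of 10 (median 0.10) and among the assembly factors 2 of 5 (median -0.07). The 5 lid genes include rpn501, whose reads may be shared with rpn502. The genes lower with rapalink-1 were rpn11 and SPCC18.17c. All 18 genes called between rapalink-1 and untreated cells were also called between the drugs, comparisons that share the rapalink-1 libraries. Quantile normalization left 16 higher and 2 lower.

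The largest core differences between the drugs were those of pre4 and pup2, whose libraries are given above. Their log2 fold changes of rapalink-1 over rapamycin were 0.32 (SE 0.05, limma adjusted p = 0.000853) and 0.31 (SE 0.04, limma adjusted p = 0.000341). For pam1 it was 0.30 (SE 0.05, limma adjusted p = 0.00138). Of the assembly genes nas6 had 0.31 (SE 0.08, limma adjusted p = 0.0122), with both rapalink-1 libraries above both rapamycin libraries. The PI31 gene fub1 had 0.34 (SE 0.11, limma adjusted p = 0.0454). For fub2, which passed the filter only through its rapalink-1 libraries, the log2 fold change between the drugs of 1.10 is a description. In the other direction rpn11 had -0.22 (SE 0.04, limma adjusted p = 0.00512) and SPCC18.17c -0.20 (SE 0.05, limma adjusted p = 0.0203). With no filter on low values the calls of nas6, fub1, rpn11 and SPCC18.17c between the drugs were lost, and that of fub1 also with edgeR and DESeq2. The call of SPCC18.17c was also lost without rapalink-1 replicate 1 and without rapamycin replicate 1. Without rapalink-1 replicate 1 or rapamycin replicate 2, either nas6 or ump1 lost its call. Quantile normalization and the fit without the intensity trend left only 1 PI31 gene called between the drugs. A PI31 call was also lost without either rapalink-1 library and without rapamycin replicate 1. The core gene that did not pass was pre3, with a log2 fold change of 0.10 between the drugs (95% interval 0.01 to 0.19, limma adjusted p = 0.0873). The largest base differences were in rpt6, rpn1302 and rpt4 (0.27, 0.25 and 0.24), the 3 base genes that also rose over untreated cells. The genes rpn9, rpn10, rpn1301, rpn502, pre3, ecm29, cut8 and SPCC24B10.16c passed in none of the 3 comparisons, and their 95% intervals between the drugs lay within -0.48 to 0.19.

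**Figure D4:**
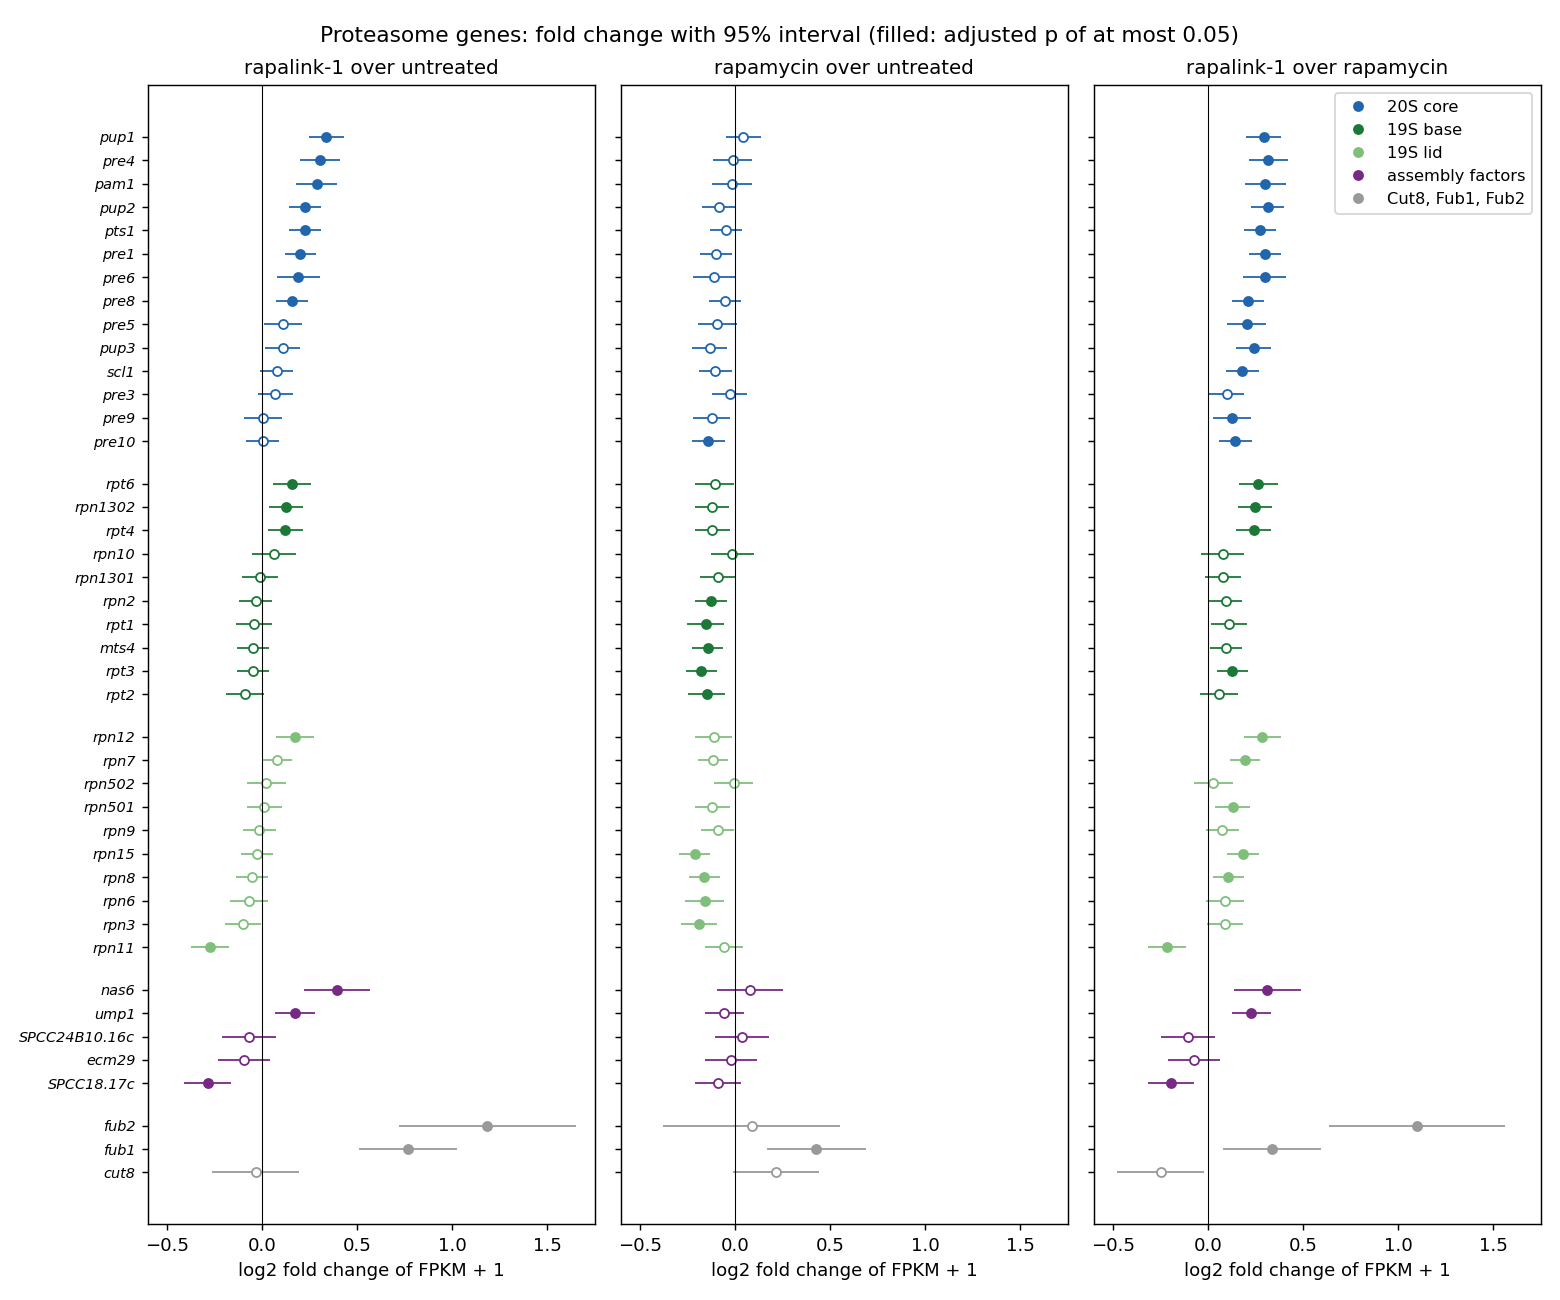
log2 fold change of FPKM + 1 with its 95% interval (line) for the 42 tested proteasome genes in the 3 comparisons, sorted within each role by the change with rapalink-1, with filled points at an adjusted p of at most 0.05. In the first panel 8 of 14 core genes are filled and to the right of 0. In the second the filled base and lid genes lie to the left of 0. In the third 13 of 14 core genes are filled. Values under quantile normalization, which called base and lid genes only lower with rapalink-1, are not drawn.

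The levels of the particles can also be set against each other within a library. Summed over the 14 core genes, FPKM were 3353 and 3262 with rapalink-1, 2851 and 2752 with rapamycin and 2966 and 2939 in untreated cells. Summed over the 21 genes of the 19S particle, with rpt5 at 0, they were 3459 and 3395 with rapalink-1, 3160 and 3105 with rapamycin and 3396 and 3463 in untreated cells. The 19S sums of rapalink-1 and untreated cells overlapped. The ratio of the core sum to the 19S sum was 0.965 ± 0.006 with rapalink-1, 0.894 ± 0.011 with rapamycin and 0.861 ± 0.017 in untreated cells (SD, n = 2 each). Each rapalink-1 library exceeded every other library in this ratio, and the rapamycin libraries lay above the untreated ones. Permuting 2 libraries against 2 cannot give a two-sided p below 0.333, so the ratios are given as values without a test, and no other test of them was run.

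**Figure D5:**
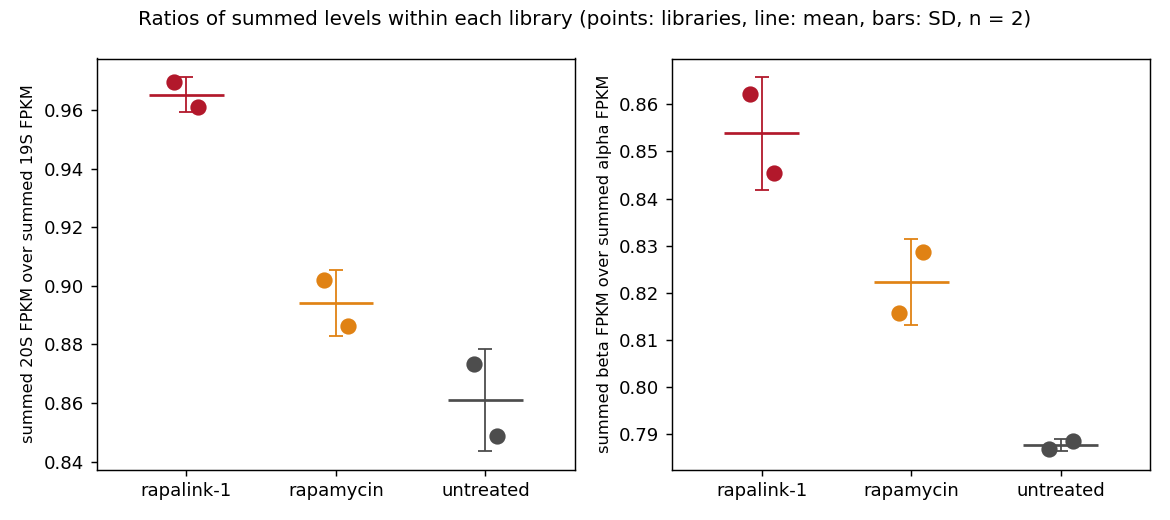
Ratio of summed 20S FPKM to summed 19S FPKM (left) and of summed beta FPKM to summed alpha FPKM (right) in each library (points), with the mean (line) and SD (bars, n = 2), on axes that do not start at 0. The rapalink-1 libraries are at 0.961 and 0.969 on the left and at 0.845 and 0.862 on the right, above the libraries of the other conditions.

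The region around the start of each gene was searched for known elements in windows from 250 bases before to 50 bases after the RefSeq start in ASM294v3, for all 44 proteasome genes and 5112 protein-coding genes, on both strands. The word GGTGGCAAA, the proteasome element bound by Rpn4 in budding yeast, occurred in 0 of the 44 windows and in 0.0978% of all windows. The HomolD word CAGTCACA occurred in 1 (pre10) and in 2.68% of all windows, TGACGT in 1 (rpn12) and in 5.91%, and GATAAG in 4 (pre3, pre4, rpn15 and ump1) and in 11.6%. The HomolE element occurred in 0 and in 1.25%. The word TATAAA occurred on either strand in 30 of 44 windows and in 48.1% of all windows. On the strand of the gene before the start it occurred in 16 of 44 windows (36.4%) and in 27.7% of all windows, and within 20 to 60 bases before the start in 3 of 44 (6.82%) and in 5.91%. Among all words of 8 bases AATATAAA, which contains TATAAA, had the largest excess, with 12 of 44 windows against 9.35% of all windows, and it was chosen after searching every word. All 44 genes have another start in RefSeq than in the deposited models, further downstream in 42, and 6 of the 12 matches lie before both starts. Of these, the matches of 4 genes higher with rapalink-1 are shown on the strand of the gene with the word in capitals, TTTATATT being the word on the opposite strand.
pup2, 111 bases before the start, chrI:3910497-3910526, minus strand: tttatttaattTTTATATTcactaataacg
pre4, 130 bases before the start, chrII:769512-769541, plus strand: ctagaatagcaAATATAAAacttttgaaag
rpt6, 239 bases before the start, chrII:2123037-2123066, minus strand: tatattggtatAATATAAAattttaggcaa
nas6, 156 bases before the start, chrI:2337953-2337982, plus strand: taaggaattgaAATATAAAcaatccgtaca
Matches occurred in genes that rose with rapalink-1 and in genes that did not, such as rpt2 and rpn7, and a match is a description of the sequence.

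The list of genes of the ubiquitin pathway held 132 other genes with ubiquitin in their description or a named role in the pathway, of which 112 were tested. With rapalink-1, 30 of them were higher and 26 lower with a median log2 fold change of 0.01, with rapamycin 14 and 11, and between the drugs 19 and 14. The shares called, 50.0%, 22.3% and 29.5%, lay near the 47.4%, 18.2% and 37.2% of all tested genes, so the counts say nothing particular to the list. The polyubiquitin gene ubi4 had 294 and 274 FPKM with rapalink-1, 174 and 180.3 FPKM with rapamycin and 149.9 and 156 FPKM in untreated cells. It was highest in the rapalink-1 libraries, with log2 fold changes over untreated cells of 0.89 (SE 0.05, limma adjusted p = 1.83e-06) with rapalink-1 and 0.21 (SE 0.05, limma adjusted p = 0.0166) with rapamycin. The ubiquitin-conjugating enzyme genes ubc6 and ubc8 also rose with rapalink-1 (0.66 and 0.44), as did sst4, a sorting receptor for ubiquitinated membrane proteins (0.49). The largest decreases among called genes that averaged 5 FPKM or more were in vms1 (-0.41), a partner of the Cdc48 ATPase, rhp23 (-0.38), the Rad23 shuttle that brings ubiquitinated proteins to the proteasome, the deubiquitinase gene ubp3 (-0.37) and ubi1 (-0.32), a fusion of ubiquitin to a ribosomal protein. The call of ubi1 was lost with quantile normalization. Genes that encode ubiquitin share sequence, so the split of reads between ubi4, ubi1 and their kin is uncertain. The shuttle gene rhp23 had 184 and 175 FPKM with rapalink-1, 191 and 181 FPKM with rapamycin and 237 and 229 FPKM in untreated cells, with a log2 fold change of -0.32 (SE 0.04, limma adjusted p = 0.00309) with rapamycin. The libraries of neither drug overlapped the untreated ones.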

How the data were processed

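PolyA RNA of 6 libraries was sequenced as paired-end reads. Per the labels and the submitters' processing notes, HISAT2 2.0.5, StringTie 1.3.3b, featureCounts 1.5.0-p3 and DESeq2 were used, and the build and strand setting are not given in the sources used here. The authors deposited FPKM of 7268 genes for every library, which proved to be scaled by median-of-ratios size factors. They also deposited tables with counts, normalized signal, log2 fold changes and p-values for part of the genes, whose fold changes and p-values were not used. Whole reads were recovered from FPKM for 100% of values, within 0.001 of a whole number, and equalled the deposited counts wherever both were given.

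log2(FPKM + 1) was fitted with limma 3.58.1 in R 4.3.3, with an intensity trend and 1 mean per condition over all 6 libraries, for genes that averaged 1 FPKM or more. This scale understates changes of low genes. Two-sided p-values were adjusted (Benjamini-Hochberg) within each comparison over its 4847 tested genes, and a gene was called at an adjusted p of at most 0.05. The fit was tested on simulated data. Alternatives were a pseudocount of 0.1, no filter, a minimum mean of 10 FPKM, no further scaling, quantile normalization, a fit of 2 conditions only, a replicate block, no trend, edgeR 4.0.16 and DESeq2 1.42.0 on recovered reads and each library left out. Counting only genes with at most 50% of the model overlapped, or only genes past the filter in every condition, was chosen after seeing the data.

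Every member may be named. Full values are given per comparison for the 6 called members that rose most and the 6 that fell most, for paralogues and for the extremes of each role by untreated level. Other full values were chosen after the values were seen. From the ubiquitin and chaperone lists the 4 called genes with the largest changes each way with rapalink-1 were named if they averaged 5 FPKM or more, with uba1 and ddi1 not found under these names. The members and lists were chosen with earlier results of these data known. Sequences came from RefSeq ASM294v3 with Python 3.11.15.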

Additional observations from a re-analysis of the deposited data

How the results depend on the processing

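The counts of called proteasome genes stayed within 1.5 times and the medians by role moved by less than the SD between replicates, with the exceptions that follow. With quantile normalization the rapalink-1 split against untreated cells was 9 higher and 11 lower, with medians of 0.085 for the core, -0.084 for the base, -0.10 for the lid and -0.13 for the assembly factors. Between the drugs 18 genes were then called, 16 of them higher, with medians of 0.18, 0.053 and 0.042 for the core, the base and the lid. The median of all tested genes shifted by at most 0.05 under it. The count of genes higher with rapamycin was 0 with quantile normalization, DESeq2, no trend, no filter, a minimum mean of 10 FPKM and in genes with at most 50% overlap.

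Without the trend, rapamycin called 1 member (1 lower) and 10 genes of the ubiquitin list. With no filter it called 3 members (3 lower), 3 genes of the ubiquitin list and 5 of the chaperone list, and between the drugs 0 members were lower and 15 genes of the ubiquitin list were called. The median of the assembly factors, which includes nas2 there, was 0.027 with rapalink-1 and 0.078 between the drugs with no filter. It was 0.050 and 0.073 with edgeR, 0.048 and 0.071 with edgeR and no filter, and 0.050 and 0.077 with DESeq2. At a minimum mean of 10 FPKM only cut8 of the 3 other members was left, with -0.034 with rapalink-1 and -0.25 between the drugs.

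Leaving out each library in turn left 13 to 18 members called with rapalink-1, 0 to 13 with rapamycin (0 to 1 higher and 0 to 12 lower) and 20 to 26 between the drugs (1 to 2 lower). The medians with rapamycin lay between -0.11 and -0.051 for the core and between -0.084 and 0.023 for the assembly factors. Between the drugs they lay between 0.083 and 0.13 for the base and between 0.076 and 0.14 for the lid. The ubiquitin list had 33 to 48, 3 to 28 and 16 to 31 calls, and the chaperone list 8 to 16 with rapamycin. Where 1 library was left in a condition, it was assumed to vary like the others.

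With the replicate number as a block, 19, 8 and 26 members were called with rapalink-1, with rapamycin and between the drugs, against 18, 11 and 28 without it. Deviations of samples with the same number correlated with r = 0.0012, -0.011 and 0.041, so no effect shared by a number was seen. Such values cannot show whether the number marks the mother culture. Genes called under every alternative numbered 8 with rapalink-1 (pam1, pre1, pre4, pts1, pup1, pup2, rpn11 and SPCC18.17c), 0 with rapamycin and 13 between the drugs. Reads under overlapping models and between rpn501 and rpn502 limit those levels, and 2 libraries per condition limit every test.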

Other observations

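Of 56 other genes with chaperone, chaperonin or heat shock protein in their description, 47 were tested. With rapalink-1, 14 were higher and 19 lower, with a median log2 fold change of -0.10, against 24.3% and 23.1% of all tested genes. With rapamycin 2 were higher and 11 lower, against 10.2% and 8.0% of all tested genes. Values are given for the called genes with the largest changes among those that averaged 5 FPKM or more. The Hsp70 gene ssa1 had 513 and 541 FPKM with rapalink-1, 193 and 193 FPKM with rapamycin and 167 and 180.4 FPKM in untreated cells, with a log2 fold change of 1.60 (SE 0.05, limma adjusted p = 1.14e-07) with rapalink-1, and its reads may be shared with its paralogue ssa2. The disaggregase gene hsp104 had 267 and 264 FPKM with rapalink-1, 133 and 137 FPKM with rapamycin and 89.9 and 101 FPKM in untreated cells, with 1.47 (SE 0.05, limma adjusted p = 3.07e-07). The small heat shock protein genes hsp16 and hsp9 had log2 fold changes of 1.39 and 0.84. The largest decreases included the ribosome-associated chaperone genes ssz1 (-0.54) and sks2 (-0.43), with SPBC1711.05 (-0.40) and pss1 (-0.38). The ssz1 libraries held 308 and 329.8 FPKM with rapalink-1, 425 and 413 FPKM with rapamycin and 467 and 459.6 FPKM in untreated cells, with rapalink-1 below both other conditions.

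In 4 of the overlapped proteasome genes without an intron in the deposited model, the part not under another model can be set against the counts. Divided by that part alone, the means were 63.4 FPKM with rapalink-1, 75.9 FPKM with rapamycin and 65.1 FPKM in untreated cells for cut8 over 463 bases. They were 45.3, 48.9 and 47.6 FPKM for SPCC24B10.16c over 971 bases, 24.4, 18.9 and 13.4 FPKM for fub1 over 468 bases, and 10.9, 2.54 and 2.12 FPKM for fub2 over 233 bases, in the same order of conditions. The calculation was chosen after the values were seen and assumes that reads were counted only in the free part.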
